A study of Mus musculus with 12 samples.

Results

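Slit diaphragm genes encode the proteins of the cell junction that spans the gaps between podocyte foot processes, and 9 of them were followed here: Nphs1, Kirrel, Fat1, Cd2ap, Magi2, Tjp1, Ptpro, Trpc6 and Plce1. They were found by symbol among the 26264 genes of both count tables, and all 9 were among the 17002 genes that passed the filter on low counts. The libraries were poly(A)-selected RNA of isolated glomeruli from 8-week-old male mice. Of the 2 substrains, BALB/cAjcl is called AJcl here, and BALB/cByJcl is called ByJcl. Glomeruli were collected from untreated mice (baseline) or 5 days after 1 dose of adriamycin (ADR, doxorubicin), given at 10 mg/kg into the retro-orbital vein, with 3 libraries for each substrain and time. Beads perfused into the glomerular capillaries and a magnet were used for the isolation, so each library is a mixture of podocytes, endothelium, mesangium and some tubule. No transgene or induced allele was part of the design. The study calls the baseline mice untreated, but it also names saline-injected control mice, and the baseline libraries are labelled Ctrl. Whether the baseline mice were injected is not settled by the sources used here. If they were not, the injection and ADR cannot be told apart. Replicate 1 of AJcl at Day 5 was excluded in the study for reduced glomerular purity, so tests here use 11 libraries and AJcl at Day 5 has n = 2, but its values are printed for each gene. The baseline and Day 5 libraries were counted in separate tables, so a difference in processing between the tables and the effect of ADR cannot be told apart.

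In the slit diaphragm, nephrin molecules from neighbouring foot processes meet in the extracellular gap, together with members of the NEPH family and the giant cadherin FAT1. Their cytoplasmic tails are held by adaptors and scaffolds such as CD2AP, MAGI2 and ZO-1, which tie the junction to the actin cytoskeleton, and by signalling proteins that include a receptor phosphatase, a calcium channel and a phospholipase. Mutations in several of these genes cause nephrotic syndrome or focal segmental glomerulosclerosis in people, and ADR is a classical way to injure podocytes in BALB/c mice.

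Total counts ranged from 42198416 to 54687045 per library, and a member had between 308 and 87007 counts in a library. Levels are given in CPM, counts scaled to the size of the library and corrected by TMM, the trimmed mean of M values. The labelled tissue was checked with marker lists. The summed level of 14 podocyte genes that are no members ran from 10689 to 22985 CPM over the 12 libraries, that of 8 endothelial genes from 4804 to 9353 CPM and that of 10 proximal tubule genes from 454 to 6166 CPM. AJcl Day 5 replicate 1 had the highest tubule sum of all 12 libraries, 6166 CPM, and AJcl baseline replicate 3 the next, 5382 CPM. Immune cell genes summed to between 14.5 and 106 CPM, and every gene of these lists was above 0 in all 12 libraries. In such bulk libraries, fewer podocytes and less RNA per podocyte cannot be told apart.

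At baseline the 9 genes differed widely in level per unit of length. Nphs1 and Ptpro stood highest and Trpc6 lowest in both substrains. In ByJcl, Nphs1 was at 235 ± 11.2 CPM per kb of exon union (SD, n = 3) and Ptpro at 164 ± 15.2. Tjp1 was at 106 ± 6.04, Fat1 at 52.1 ± 7.38, Kirrel at 45.4 ± 2.48, Cd2ap at 36.3 ± 3.81 and Plce1 at 35.7 ± 1.52 CPM per kb. Magi2 was at 26.2 ± 2.29 and Trpc6 at 1.94 ± 0.327 CPM per kb. The values of Fat1 and Kirrel, and those of Cd2ap and Plce1, lay within 1 SD of each other, so their order is not resolved. The middle of the order depends on which length is used: per kb of the longest transcript Cd2ap stood at 104 CPM, because its exon union is 16513 bases and its longest transcript 5774 bases.

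**Figure D1:**
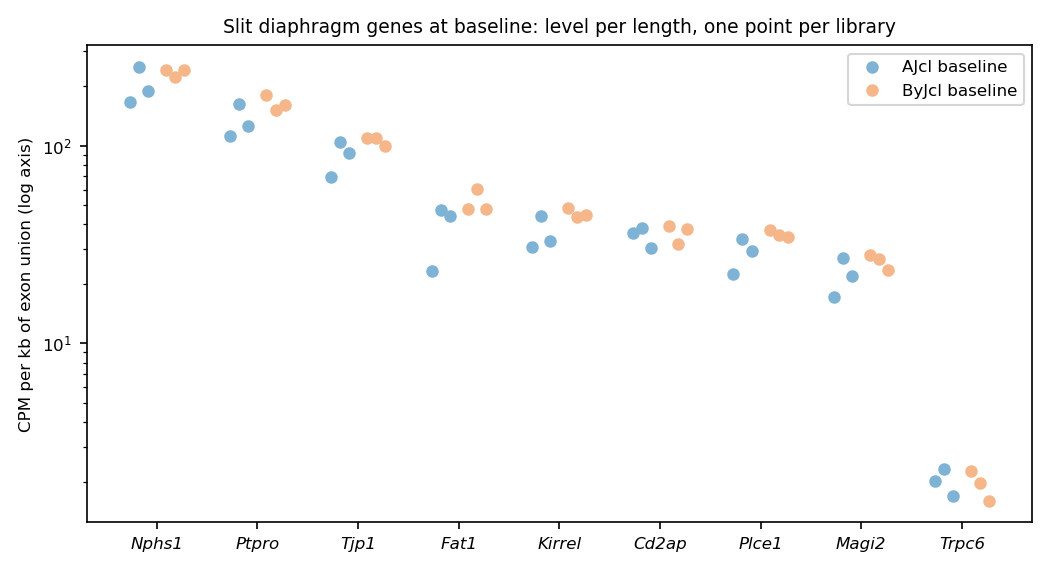
Level of each slit diaphragm gene at baseline in CPM per kb of exon union (log axis), 1 point per library, AJcl in blue and ByJcl in orange, ordered by the ByJcl mean. Nphs1 and Ptpro lie at the top and Trpc6, at 1.94 CPM per kb in ByJcl, at the bottom.

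Nphs1 (chromosome 7, 30157740 to 30186675; gene positions are on GRCm39) encodes nephrin, the adhesion molecule that forms the core of the slit diaphragm. In ByJcl it was at 1600.2, 1475 and 1608 CPM at baseline and at 852, 488 and 551 CPM at Day 5. In AJcl it was at 1109.7, 1659 and 1249.7 CPM at baseline, at 1347 and 889 CPM in Day 5 replicates 2 and 3, and at 778 CPM in the excluded replicate 1. All 3 ByJcl libraries at Day 5 lay below every baseline library of either substrain, whereas AJcl Day 5 replicate 2 lay inside the AJcl baseline range. In ByJcl, Nphs1 fell by 1.28 on the log2 scale, to 0.412 of baseline, with an SE of 0.24 and an adjusted p of 0.00853. Here and throughout, tests are quasi-likelihood tests of edgeR, and p-values were adjusted over all tested genes by the method of Benjamini and Hochberg. In AJcl the log2 fold change (log2FC) was -0.25 (SE 0.26, adjusted p = 0.829, edgeR).

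Kirrel (chromosome 3, 86985900 to 87086810, now named Kirrel1) encodes NEPH1, which binds nephrin across the slit. It did not follow Nphs1. In ByJcl it was at 388, 349 and 359 CPM at baseline and at 351, 394 and 368 CPM at Day 5, ranges that overlap. The log2FC in ByJcl was 0.05, with a 95% interval of -0.26 to 0.36 (adjusted p = 0.863, edgeR). In AJcl it was at 249, 356 and 265 CPM at baseline and at 371 and 369 CPM in Day 5 replicates 2 and 3, with 201 CPM in replicate 1. Both tested AJcl Day 5 libraries lay above all 3 AJcl baseline libraries, with a log2FC of 0.37 that did not pass the test (SE 0.16, adjusted p = 0.466, edgeR). With replicate 1 in place of replicate 2 the AJcl value of Kirrel was -0.025, and in place of replicate 3 it was -0.028.

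Fat1 (chromosome 8, 45388302 to 45505294) encodes a giant protocadherin of the slit. Fat1 was at 757, 960.1 and 758 CPM in ByJcl at baseline and at 495, 556 and 659 CPM at Day 5, without overlap. The log2FC of Fat1 was -0.51 in ByJcl (SE 0.23, adjusted p = 0.184, edgeR). The AJcl libraries were at 367, 752 and 701 CPM at baseline, at 702 and 629 CPM in the tested Day 5 libraries and at 229 CPM in replicate 1. AJcl baseline replicate 1 was far below the other baseline libraries, and without it the ByJcl change of Fat1 was -0.50 with an adjusted p of 0.0315 (edgeR).

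Among the adaptors and scaffolds, Magi2 (chromosome 5, 19431741 to 20909790) changed most. It encodes a membrane-associated guanylate kinase with several PDZ domains that binds nephrin. Magi2 was at 329.6, 315 and 278 CPM in ByJcl at baseline and at 70.7, 52.3 and 51.0 CPM at Day 5. In AJcl it was at 202, 316 and 256 CPM at baseline and at 170.2, 73.2 and 62.9 CPM in Day 5 replicates 2, 3 and 1. Every Day 5 library of either substrain lay below every baseline library. In ByJcl the level fell by 2.38 on the log2 scale (SE 0.28, adjusted p = 0.00142, edgeR), a 5.20-fold decrease. In AJcl the log2FC of Magi2 was -1.08 (SE 0.31, adjusted p = 0.238, edgeR). That value had an unadjusted p of 0.0048 and passed the threshold by DESeq2's Wald test (adjusted p = 0.0198). Without replicate 2 it was -1.79 (adjusted p = 0.0207, edgeR), but this leaves 1 AJcl library at Day 5, replicate 3, which is assumed to vary like the other groups, so that call rests on 1 library. The antisense gene 4921504A21Rik shares exon bases with Magi2. Its counts were 5.15% to 6.88% of the Magi2 counts in the baseline libraries and 8.47% to 13.3% in the Day 5 libraries, and the strand setting of the counting is not given in the sources used here.

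Cd2ap (chromosome 17, 43103839 to 43187613) encodes an adaptor that links nephrin to actin and to phosphoinositide 3-kinase. It was at 645, 528 and 625 CPM in ByJcl at baseline and at a narrow 309, 321 and 291 CPM at Day 5. AJcl had 598, 635 and 502 CPM at baseline, 544 and 336 CPM in Day 5 replicates 2 and 3, and 327 CPM in replicate 1. AJcl replicate 2 stayed inside its baseline range, and the other Day 5 libraries of both substrains lay below all baseline libraries. In ByJcl, Cd2ap fell by 0.94 on the log2 scale (SE 0.17, adjusted p = 0.00726, edgeR), although scaling the libraries to podocyte genes, described further on, turned this value to 0.041. In AJcl the log2FC was -0.38 (SE 0.19, adjusted p = 0.562, edgeR).

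Tjp1 (chromosome 7, 64945898 to 65177529) encodes the tight junction scaffold ZO-1, which is also made by endothelial and tubular cells. It was at 871, 869 and 787 CPM in ByJcl at baseline and at 569.8, 659.7 and 671 CPM at Day 5, without overlap. The log2FC of -0.39 did not pass the test after adjustment (SE 0.15, unadjusted p = 0.0296, adjusted p = 0.137, edgeR). In AJcl, Tjp1 was at 550.4, 829 and 731 CPM at baseline, at 889 and 702 CPM in the tested Day 5 libraries and at 369.5 CPM in replicate 1, with a log2FC of 0.19 (SE 0.17, adjusted p = 0.797, edgeR).

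Ptpro (chromosome 6, 137229276 to 137440263) encodes GLEPP1, a receptor tyrosine phosphatase of the foot process surface. Its pattern was close to that of Nphs1. It was at 1276, 1064 and 1136 CPM in ByJcl at baseline and at 646, 439 and 474 CPM at Day 5. In AJcl, Ptpro was at 787, 1146 and 886 CPM at baseline, at 884 and 597 CPM in Day 5 replicates 2 and 3 and at 489 CPM in replicate 1. The ByJcl groups did not overlap, and the level fell by 1.13 on the log2 scale (SE 0.21, adjusted p = 0.00784, edgeR). The AJcl log2FC of Ptpro was -0.33 (SE 0.23, adjusted p = 0.724, edgeR).

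Of the calcium and lipid signalling genes, Plce1 fell in ByJcl and Trpc6 was not called. Plce1 (chromosome 19, 38469411 to 38773474) encodes phospholipase C epsilon 1. It was at 648, 612 and 597 CPM in ByJcl at baseline and at 251, 217 and 243 CPM at Day 5, a decrease of 2.57-fold with little spread in either group (log2FC -1.36, SE 0.20, adjusted p = 0.00307, edgeR). AJcl Plce1 levels were 387, 582 and 511 CPM at baseline and 445, 252 and 177 CPM in Day 5 replicates 2, 3 and 1, with a log2FC of -0.49 over the tested libraries (SE 0.22, adjusted p = 0.499, edgeR). Trpc6 (chromosome 9, 8492905 to 8682359) encodes a calcium-permeable cation channel. It was the scarcest of the 9 genes, at 17.0, 14.8 and 12.1 CPM in ByJcl at baseline and at 13.8, 6.98 and 8.58 CPM at Day 5. The AJcl libraries were at 15.3, 17.6 and 12.8 CPM at baseline and at 12.1, 12.1 and 11.5 CPM at Day 5 in replicates 1, 2 and 3. The ByJcl groups overlapped, with a log2FC of -0.55 (SE 0.25, adjusted p = 0.18, edgeR). Without ByJcl Day 5 replicate 1, the highest of its group, the value for Trpc6 was -0.90 and was called (adjusted p = 0.0208, edgeR).

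**Figure D2:**
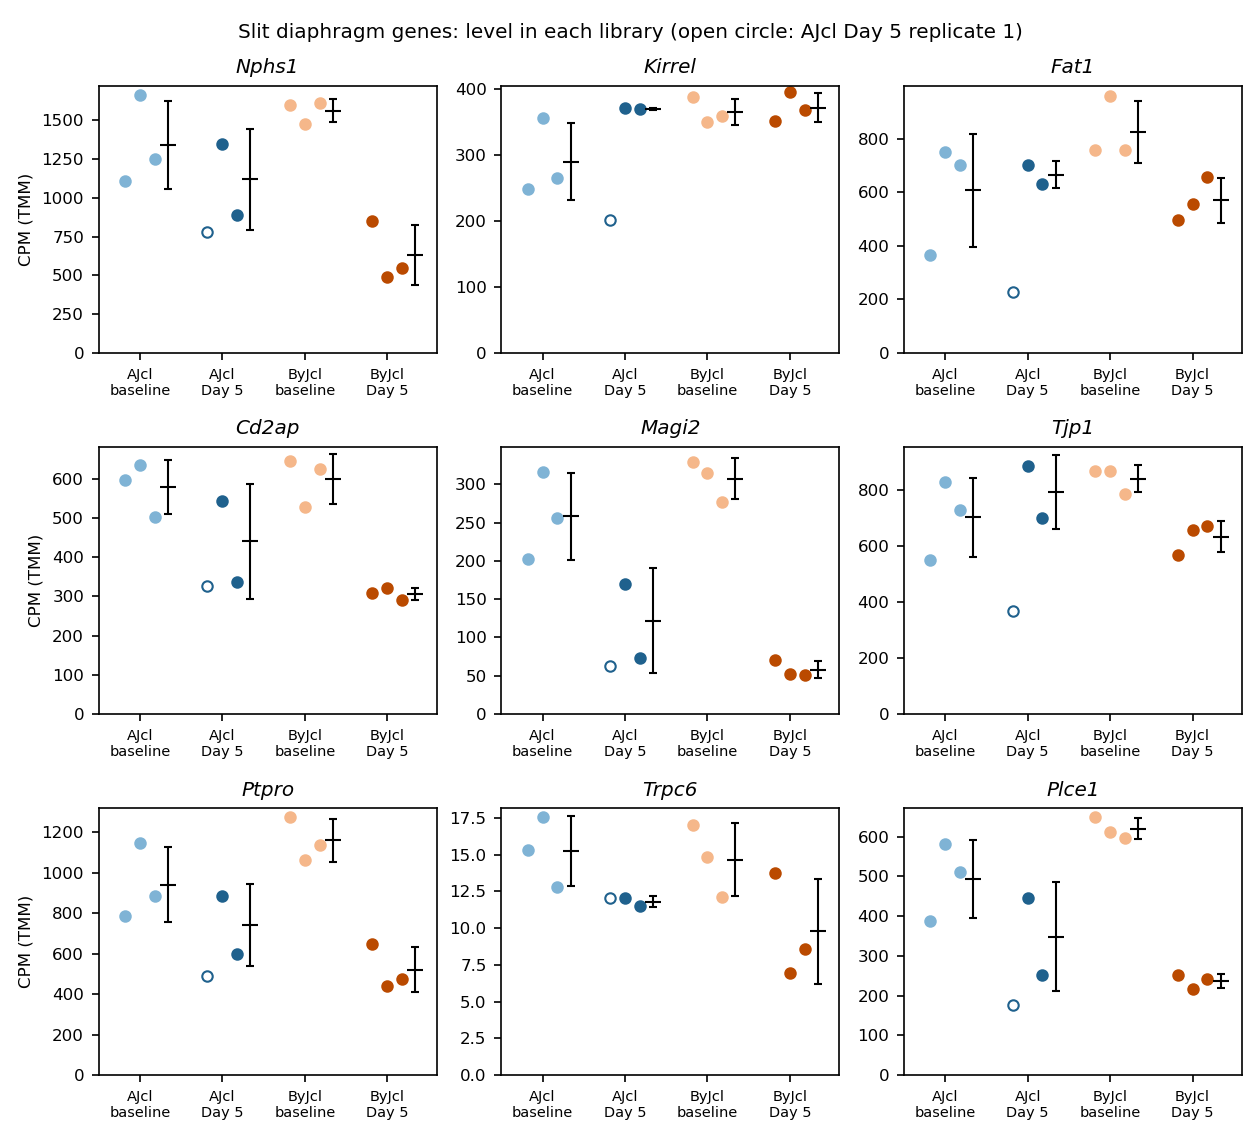
CPM of the 9 slit diaphragm genes in each library by substrain and time (y axes start at 0), with the group mean and SD in black and the excluded AJcl Day 5 replicate 1 as an open circle outside the mean. Magi2 at Day 5 lies between 51.0 and 70.7 CPM in ByJcl, below all baseline libraries, while Kirrel stays between 349 and 394 CPM in ByJcl at both times.

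In all, 5 of the 9 genes fell in ByJcl at Day 5 on the TMM scale (Magi2, Plce1, Nphs1, Ptpro and Cd2ap) and none rose. On the podocyte scale described further on, Magi2 alone was called as lower, beside 0.588% of tested genes. Kirrel and Tjp1 were called as higher there, beside 72.4%. On the TMM scale 10.6% of all tested genes were called in this comparison, 4.83% as lower and the remainder as higher. At an unadjusted p under 0.05 there were 8 of the 9, all but Kirrel, and 26.8% of all tested genes. The log2FC of the other 4 ran from -0.55 for Trpc6 to 0.05 for Kirrel (all 4 above 0 on the podocyte scale described further on), and the median over the 9 was -0.94 beside 0.01 over all tested genes. In 7 of the 9, Trpc6 and Kirrel being the exceptions, the ByJcl Day 5 libraries lay below all ByJcl baseline libraries, as in 17.7% of tested genes. In AJcl, edgeR called none of the 9, with 3 at an unadjusted p under 0.05 (Magi2, Kirrel and Plce1) and 1, Magi2, called by DESeq2. Of all tested genes 0.312% were called in AJcl by edgeR and 1.77% by DESeq2, and 9.8% had an unadjusted p under 0.05. The absence of calls depended on the libraries. With the excluded replicate 1 in place of replicate 2, edgeR called 3 of the 9 as lower (Magi2, Cd2ap and Plce1). In that fit 148 of 17020 tested genes were called, 67 of them as lower. With replicate 1 added, or in place of replicate 3, none of the 9 was called. Magi2 and Trpc6 had both tested AJcl Day 5 libraries below all AJcl baseline libraries, as had 12.3% of tested genes. Averaged over the substrains the same 5 genes were called as lower, from -1.73 for Magi2 (adjusted p = 0.00104, edgeR) to -0.66 for Cd2ap (adjusted p = 0.00873, edgeR), with 10.4% of tested genes called and 4.15% called as lower. That holds on the TMM scale: with the libraries scaled to podocyte genes, described further on, the average of Cd2ap was -0.03, and Magi2 was the only one of the 9 called as lower. Without AJcl Day 5 replicate 3 this averaged count was 3, as Nphs1 (adjusted p = 0.138, edgeR) and Ptpro (adjusted p = 0.0946, edgeR) no longer passed, and over all genes tested in that fit 3% were called and 0.985% called as lower.

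Marker lists of other cell types were compared between the times in ByJcl. The proximal tubule sum was 527 to 2742 CPM in ByJcl at baseline and 454 to 2309 CPM at Day 5, and 0 of the 10 genes were called by edgeR in either direction, with 0 at an unadjusted p under 0.05. With a proximal tubule score as a covariate, Magi2, Plce1, Nphs1, Ptpro and Cd2ap were again called as lower in ByJcl, and so was Trpc6 (adjusted p = 0.0248, edgeR), as were 6.64% of tested genes. The endothelial sum was 7737 to 9353 CPM at baseline and 4804 to 6841 CPM at Day 5, without overlap. Of the 8 endothelial genes 1 rose and 2 fell, of the 6 mesangial and smooth muscle genes 1 rose, of the 7 immune genes 1 rose and of the 3 parietal epithelial genes 1 rose, and their part in the changes of the slit diaphragm genes was not tested. Leaving out any 1 of the 11 libraries left the 5 calls in ByJcl in place.

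Substrains were compared directly at each time. At baseline 8 of the 9 genes had a higher mean in ByJcl, from a log2FC of 0.07 for Cd2ap to 0.46 for Fat1, and Trpc6 was at -0.04; scaled to the 14 podocyte genes described further on, Cd2ap turned to -0.15. None was called by edgeR or DESeq2, where 0.159% of tested genes were called by edgeR and 0.594% by DESeq2. At an unadjusted p under 0.05 there were 8.34% of tested genes and 1 of the 9, Kirrel (log2FC 0.35, 95% interval 0.04 to 0.66, adjusted p = 0.580, edgeR). At Day 5 the signs were mostly reversed: 8 of the 9 were lower in ByJcl and Kirrel was at 0.03, although scaling to the 14 podocyte genes turned Fat1 (0.25), Tjp1 (0.16) and Trpc6 (0.14) above 0. Scaling to 5 podocyte transcription factors also turned Cd2ap (0.099), Plce1 (0.068) and Ptpro (0.058) above 0, and left Magi2 (-0.42) and Nphs1 (-0.27) below it. Magi2 had the lowest value, -1.03 (SE 0.29, adjusted p = 0.185, edgeR), followed by Nphs1 at -0.79 (SE 0.26, adjusted p = 0.240, edgeR). Plce1 at -0.52 and Cd2ap at -0.48 came next on the TMM scale. edgeR called none of the 9 and 0.165% of all tested genes. At an unadjusted p under 0.05 there were 4 of the 9 and 14% of tested genes. DESeq2 called Magi2 (adjusted p = 0.0242) and 3.15% of tested genes. For 5 of the 9 genes (Nphs1, Magi2, Cd2ap, Tjp1 and Plce1) all ByJcl Day 5 libraries lay below both tested AJcl libraries, as for 17.2% of tested genes. The libraries of AJcl at Day 5 were far apart: replicate 2 was nearer to baseline and replicate 3 nearer to the ByJcl levels for Magi2, Cd2ap and Plce1. Without replicate 3, Magi2 was at -1.49 and was called (adjusted p = 0.0262, edgeR), but AJcl at Day 5 is then replicate 2 alone, the library nearer to baseline, with its spread assumed to be that of the other groups. Beside these values, the 10 proximal tubule genes were all lower in ByJcl at both times, with a median log2FC of -0.90 at baseline and -0.95 at Day 5, and the 7 immune genes were all higher, with medians of 1.14 and 1.08. The 6 distal nephron and collecting duct genes were all lower at both times too, with medians of -1.27 and -1.42. edgeR called none of these tubule and immune genes at either time. At an unadjusted p under 0.05 there were 0 proximal tubule genes at either time, 2 and 3 distal genes and 4 and 3 immune genes. All 6 mesangial and smooth muscle genes were higher in ByJcl at Day 5, 1 of them called, and the 14 podocyte reference genes were all higher at baseline (median 0.21) and 12 of 14 lower at Day 5 (median -0.38). The part of these cell types in the substrain values was not tested.

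The difference between the substrains in their change at Day 5 was tested as an interaction. All 9 values were below 0, from -1.30 for Magi2 (SE 0.40, adjusted p = 0.620, edgeR) and -1.03 for Nphs1 (SE 0.35, adjusted p = 0.620, edgeR) to -0.20 for Trpc6, and on the 14-gene podocyte scale Kirrel (0.31), Cd2ap (0.15), Tjp1 (0.088) and Trpc6 (0.39) turned above 0. None of the 9 was called, and neither was any other tested gene (0%), although 6 of the 9 and 1363 (8.02%) of all tested genes had an unadjusted p under 0.05. Of the 14 podocyte reference genes 13 were below 0 too, with a median of -0.61 beside -0.66 for the 9. An unadjusted p under 0.05 (edgeR) was found for 7 of these 14. DESeq2 called 22 genes (0.129%) and none of the 9. So the 5 genes called in ByJcl and not in AJcl were not shown to respond differently in the substrains. The interval for Magi2 ran from -2.17 to -0.42 and that for Kirrel from -0.78 to 0.14, each for this difference on the log2 scale.

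**Figure D3:**
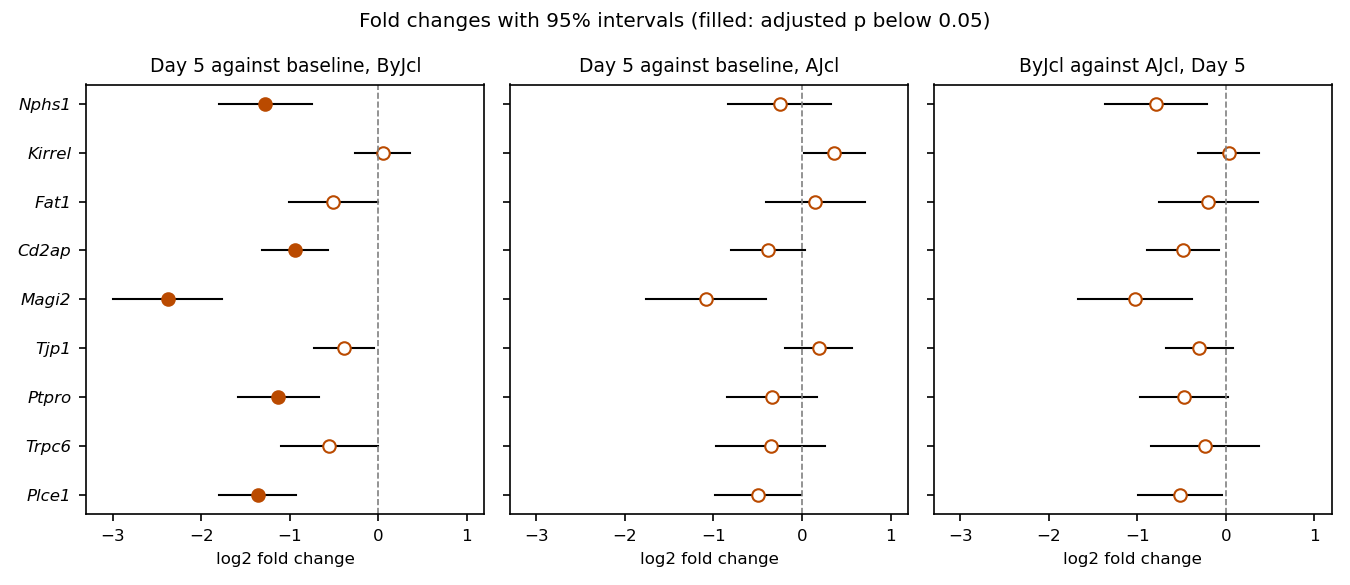
log2 fold changes of the 9 slit diaphragm genes with 95% intervals for Day 5 against baseline in ByJcl and in AJcl and for ByJcl against AJcl at Day 5; filled points passed an adjusted p of 0.05 by edgeR. The 5 filled points in ByJcl run from -2.38 for Magi2 to -0.94 for Cd2ap, and no point is filled in the other panels; the Cd2ap value turns to 0.041 when libraries are scaled to podocyte genes.

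The 9 genes were next set against other genes of the podocyte. A reference of 14 podocyte genes outside the 9 (Wt1, Podxl, Synpo, Tcf21, Clic5, Dach1, Cdkn1c, Rhpn1, Lmx1b, Foxc2, Plekhh2, Ddn, Npr3 and Sema3g) also fell at Day 5 in ByJcl, with 9 of 14 lower, 1 higher (Cdkn1c) and a median log2FC of -0.93, beside 10.6% of all tested genes called and 4.83% called as lower. Per library, the log2 ratio of each slit diaphragm gene to the geometric mean of this list shows whether it moved with them. For Magi2 the ratio was -1.17, -1.10 and -1.42 in ByJcl at baseline and -2.59, -2.63 and -2.76 at Day 5. In AJcl it was -1.48, -1.21 and -1.21 at baseline and -1.82 and -2.50 in Day 5 replicates 2 and 3, with -2.64 in replicate 1. The Magi2 ratio was thus lower in all 6 Day 5 libraries than in any baseline library. The ratio of Kirrel moved the other way, from -0.93, -0.96 and -1.05 in ByJcl at baseline to -0.28, 0.29 and 0.10 at Day 5. In AJcl the Kirrel ratio was -1.18, -1.04 and -1.16 at baseline and -0.97, -0.70 and -0.17 at Day 5 in replicates 1, 2 and 3. Every Day 5 library lay above the baseline libraries of its substrain. Nphs1, at 1.11, 1.12 and 1.11 at baseline in ByJcl, was at 1.00, 0.60 and 0.68 at Day 5, and Ptpro went from 0.78, 0.65 and 0.61 to 0.60, 0.44 and 0.46. In AJcl the tested Day 5 ratios of both lay inside the baseline range. Nphs1 was at 0.97, 1.18 and 1.08 and then at 1.17 and 1.10, and Ptpro at 0.48, 0.64 and 0.58 and then at 0.56 and 0.53. The excluded replicate 1 was at 0.99 for Nphs1 and 0.31 for Ptpro. The Cd2ap ratio overlapped between the times, at -0.20, -0.36 and -0.25 and then at -0.46, -0.01 and -0.24. For Tjp1 the ByJcl ratio was higher at Day 5, at 0.42, 1.03 and 0.96 against 0.23, 0.36 and 0.08.

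When the libraries were scaled to this list in place of TMM, the median of all tested genes moved to 0.98 on the log2 scale in the ByJcl comparison, and 72.4% of tested genes were called as higher and 0.588% as lower. On this scale 3 of the 9 were called. Magi2 was lower (-1.43, SE 0.21, adjusted p = 0.000218, edgeR), that is 0.371 of the level that would have kept pace with the reference. Kirrel (1.03, SE 0.20, adjusted p = 0.000706, edgeR) and Tjp1 (0.60, SE 0.20, adjusted p = 0.0149, edgeR) were higher, as were most tested genes, and both values are near or under the median of 0.98. The values of Nphs1 (-0.35, adjusted p = 0.0882, edgeR), Plce1 (-0.39, adjusted p = 0.0634, edgeR), Ptpro (-0.18) and Cd2ap (0.041) did not pass. A second reference held 5 podocyte transcription factors (Wt1, Tcf21, Lmx1b, Foxc2 and Dach1), a choice made after seeing the data. All 5 are among the 14, so the scales are not independent. On this second scale Magi2 was at -1.28, Kirrel at 1.19 and Tjp1 at 0.76. The same 3 genes were called, with 77.2% of tested genes called as higher and 0.388% as lower. Averaged over the substrains, Magi2 was called as lower (-1.13) and Kirrel (0.88), Tjp1 (0.56) and Fat1 (0.48) as higher on the 14-gene scale, where 68% of tested genes were called as higher and 0.694% as lower and the median of all genes was 0.64. The averages of Nphs1 (-0.15), Ptpro (-0.10), Plce1 (-0.30) and Cd2ap (-0.03) were not called on it, and Cd2ap went to 0.092 with the transcription factors. In AJcl none of the 9, and 0.853% of tested genes, were called by edgeR on the 14-gene scale, where Magi2 was at -0.82 (SE 0.23, adjusted p = 0.120, edgeR) and Kirrel at 0.72 (SE 0.22, adjusted p = 0.158, edgeR).

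**Figure D4:**
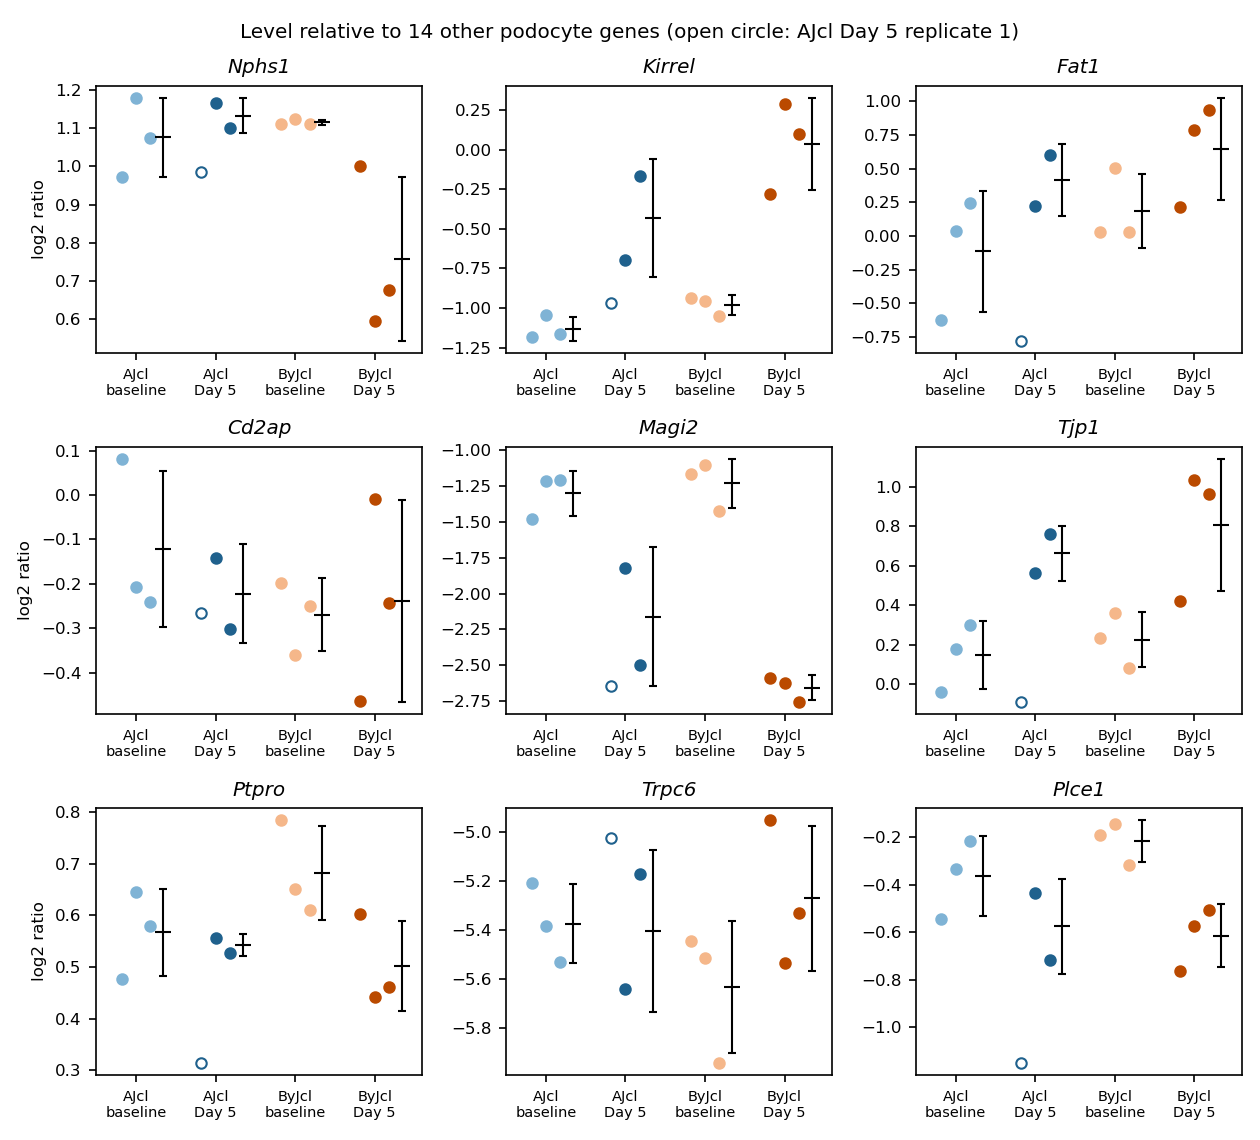
log2 ratio of each slit diaphragm gene to the geometric mean CPM of 14 other podocyte genes, 1 point per library, with the group mean and SD in black and AJcl Day 5 replicate 1 as an open circle. Magi2 drops from between -1.42 and -1.10 to between -2.76 and -2.59 in ByJcl, and Kirrel climbs to between -0.28 and 0.29.

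Magi2 and Kirrel stood at opposite ends of the response, and Nphs1 encodes the core of the junction, so the promoter sequences of these genes are shown. They come from RefSeq on GRCm38.p6 and run from 250 bases before to 50 bases after the annotated start, on the strand of the gene. All 9 genes matched the promoter table, Magi2 with 2 windows. Capitals mark stretches covered by a match, on either strand, to the G-rich letters GNGGGNGNG, a simplified form of the sites that the podocyte factor WT1 binds, which EGR1 sites and other G-rich runs can also fit.
Nphs1, chr7:30459808-30460107, plus strand: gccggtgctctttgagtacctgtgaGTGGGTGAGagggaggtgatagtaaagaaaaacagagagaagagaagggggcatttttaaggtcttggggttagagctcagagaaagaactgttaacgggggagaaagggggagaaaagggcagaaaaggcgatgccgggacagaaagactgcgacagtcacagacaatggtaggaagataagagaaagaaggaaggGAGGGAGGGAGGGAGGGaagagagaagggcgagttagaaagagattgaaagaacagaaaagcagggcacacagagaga
Magi2, upstream window, chr5:19226796-19227095, plus strand: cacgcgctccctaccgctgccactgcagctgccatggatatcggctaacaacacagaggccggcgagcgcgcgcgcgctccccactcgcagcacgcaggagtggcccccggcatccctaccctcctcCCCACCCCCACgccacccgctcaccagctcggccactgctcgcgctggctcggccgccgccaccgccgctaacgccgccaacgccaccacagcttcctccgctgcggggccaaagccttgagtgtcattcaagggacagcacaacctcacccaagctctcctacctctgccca
Kirrel, chr3:87174488-87174787, minus strand: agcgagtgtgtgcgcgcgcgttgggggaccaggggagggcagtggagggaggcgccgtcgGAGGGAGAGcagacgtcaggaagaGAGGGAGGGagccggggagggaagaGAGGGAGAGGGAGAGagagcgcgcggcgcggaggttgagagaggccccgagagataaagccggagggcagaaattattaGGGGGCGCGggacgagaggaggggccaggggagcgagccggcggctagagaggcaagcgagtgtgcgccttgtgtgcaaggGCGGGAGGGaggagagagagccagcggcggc
The Nphs1 window held 4 matches, that of Magi2 2 and that of Kirrel 6, with overlapping matches counted separately. Such letters were common: 8 of the 10 windows of the slit diaphragm genes and 43.8% of 32851 windows of all genes held at least 1 match, and the windows of Trpc6 and Plce1 held none. The Magi2 window also held a CAGCTG, an E-box of the type bound by TCF21, as did the Cd2ap window and 16.3% of all windows. The homeodomain core TAATTA was in 1 of the 10 windows, the downstream one of Magi2, and in 5.29% of all windows, and the E-box CACGTG was in none of the 10 and in 7.15% of all. The E-boxes CAGCTG and CACGTG differ in their middle bases and cannot match at the same place. Any relation between these matches and the changes at Day 5 was not tested. A match describes the letters and is no sign of binding.

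The wider set of slit diaphragm genes held 42 further genes: adhesion partners, polarity proteins, adaptors, actin regulators and signalling genes, all of them tested. In ByJcl at Day 5, 8 fell and 3 rose, with a median log2FC of 0.00, beside 10.6% of all tested genes called in this comparison and 4.83% called as lower. The falls were in Ddn (dendrin, an adaptor that binds nephrin and CD2AP), Synpo (synaptopodin, an actin-binding protein), Arhgap24 (a Rac GTPase-activating protein), Mpp5 (PALS1, a polarity scaffold), Crb2 (a Crumbs polarity receptor), Iqgap2 (a scaffold that binds actin), Cblb (a ubiquitin ligase) and Fyn (the kinase that phosphorylates nephrin), the last 3 of which turned above 0, at 0.18, 0.38 and 0.40, when libraries were scaled to the 14 podocyte genes. On that scale Ddn (-1.81), Synpo (-0.59) and Arhgap24 (-0.54) were still called as lower, and Mpp5 (-0.19) and Crb2 (-0.18) were not called. Scaled to the 5 podocyte transcription factors, 1 of the 42 was called as lower. Ddn and Synpo belong to the 14 genes themselves. The rises were in Inf2 (a formin), Magi1 and Trpc5, and Trpc5 had so few reads, 2 counts in each ByJcl baseline library and 12, 22 and 4 at Day 5, that no fold change is given. The count of rises depended on the test and the libraries: DESeq2 called 7 of the 42 as higher and 8 as lower, beside 8.95% and 6.9% of all tested genes. By edgeR none of the rises was called without any 1 of the 3 ByJcl baseline libraries or without ByJcl Day 5 replicate 2, whereas 7 or 8 of the falls were called in each of those fits.

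Ddn had the steepest fall of the set. It was at 809, 749 and 918 CPM in ByJcl at baseline and at 199, 71.9 and 100.3 CPM at Day 5 (log2FC -2.70, SE 0.39, adjusted p = 0.00307, edgeR). Synpo was at 3068, 3126 and 2878 CPM and then at 1210.5, 912 and 934 CPM (log2FC -1.54, SE 0.21, adjusted p = 0.00234, edgeR). The ByJcl groups of Ddn and of Synpo were far apart. Arhgap24 fell by 1.47 on the log2 scale (SE 0.23, adjusted p = 0.00403, edgeR), Mpp5 by 1.17 and Crb2 by 1.12. Of the 42 genes, 22 had an unadjusted p under 0.05 in ByJcl, as had 26.8% of all tested genes. On the 14-gene podocyte scale 32 of the 42 were called as higher, a share near the 72.4% of all tested genes, and 3 as lower, beside 0.588% of all.

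Within 2 gene pairs the paralogs differed in their calls. Magi2 fell in ByJcl, whereas Magi1 was at 18.2, 17.2 and 17.3 CPM at baseline and at 20.7, 28.5 and 29.6 CPM at Day 5. Magi1 rose by a log2FC of 0.60 (SE 0.14, adjusted p = 0.0234, edgeR), but from a level far below that of Magi2. In AJcl the log2FC of Magi1 was also 0.60 (SE 0.16, adjusted p = 0.201, edgeR). Kirrel2, which encodes NEPH3, was at 29.9, 36.1 and 25.8 CPM in AJcl at baseline and at 57.7 and 62.1 CPM in the tested Day 5 libraries, with 44.1 CPM in replicate 1. All 3 Day 5 libraries lay above all 3 at baseline, and Kirrel2 was the only gene of the 42 called in AJcl (log2FC 0.99, SE 0.18, adjusted p = 0.0488, edgeR). In ByJcl it was at 40.8, 30.5 and 37.2 CPM at baseline and at 49.6, 52.9 and 43.7 CPM at Day 5 (log2FC 0.46, SE 0.16, adjusted p = 0.0915, edgeR). The Kirrel2 call in AJcl was narrow: no gene of the 42 was called in AJcl with replicate 1 added, without any 1 of the 3 AJcl baseline libraries, or without ByJcl baseline replicate 3, AJcl Day 5 replicate 3 or ByJcl Day 5 replicate 2. The authors' counting of reads shared between such paralogs is not given in the sources used here.

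Averaged over the substrains 5 of the 42 rose (Inf2, Magi1, Kirrel2, Plcg1 and Trpc5) and 7 fell, the 8 of ByJcl without Cblb, all on the TMM scale, beside 10.4% of all tested genes called and 4.15% called as lower. Inf2 was at 298, 309 and 301 CPM in ByJcl at baseline and at 442, 474 and 439 CPM at Day 5, with a log2FC of 0.61 in ByJcl (adjusted p = 0.0256, edgeR) and 0.80 in AJcl (adjusted p = 0.0874, edgeR). Between the substrains edgeR called 0 of the 42 at baseline, with 3 at an unadjusted p under 0.05 (8.34% of all tested genes) and 0 called by DESeq2 (0.594% of all). At Day 5 it called 0, with 9 at an unadjusted p under 0.05 (14% of all) and 3 called by DESeq2 (3.15% of all). In the interaction it called 0, with 10 at an unadjusted p under 0.05 (8.02% of all) and 0 called by DESeq2 (0.129% of all).

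**Figure D5:**
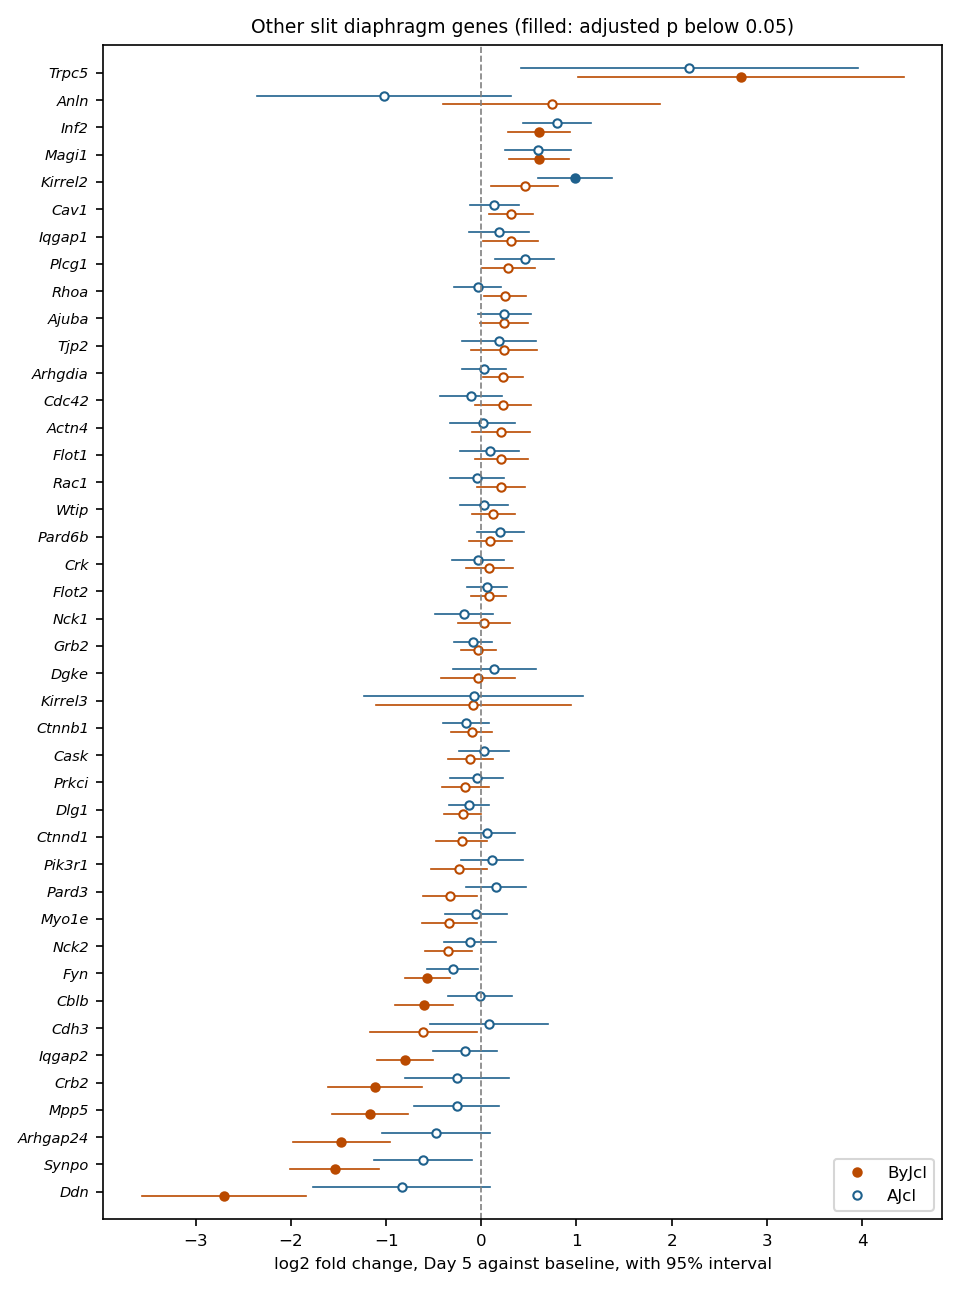
log2 fold changes at Day 5 against baseline, with 95% intervals, for 42 further slit diaphragm genes in ByJcl (orange) and AJcl (blue), ordered by the ByJcl value; filled points passed an adjusted p of 0.05 by edgeR. Ddn (-2.70), Synpo (-1.54) and Arhgap24 (-1.47) lie lowest, and Kirrel2 (0.99) is the only filled AJcl point; most values rise above 0 when libraries are scaled to podocyte genes.

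The genes outside the 9 whose profiles over the 11 libraries were nearest to theirs were listed by the root-mean-square distance between centred log2 CPM profiles. Nearest to Nphs1 were Crtc1 (0.0796), Cttnbp2 (0.124), 4921504A21Rik (0.1247), Fam222a (0.135) and Adcy1 (0.137). Nearest to the mean profile of the 9 were Mtss1 (0.0493), Podxl (0.0610), Hspa12a (0.0618), Coro2b (0.0838) and Septin11 (0.0847). For scale, the closest pair among the 9, Nphs1 and Ptpro, was 0.139 apart, and the farthest, Kirrel and Magi2, was 1.13 apart.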

How the data were processed

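Poly(A)-selected, strand-specific, paired-end RNA-seq of 12 glomerular libraries was analysed. According to the study's methods and the labels, the authors used FastQC and Trimmomatic on the reads, STAR for alignment (GRCm39) and featureCounts for gene counts; the annotation and the strand and pair settings are not given in the sources used here. The deposited values are raw counts per gene, neither normalized nor pooled. Among counts of 1 to 49, 77.1% to 82.9% were even, so a fragment may count as 2.

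Groups came from the labels. Genes were filtered with filterByExpr (17002 kept) and fitted with edgeR 4.0.16 (R 4.3.3), TMM scaling, 1 coefficient per group, 11 libraries and 7 residual degrees of freedom. Quasi-likelihood tests were adjusted by Benjamini-Hochberg over all 17002 genes, and an adjusted p below 0.05 was called. Standard errors are the log2FC divided by the square root of F. Distances used log2(CPM + 0.5). DESeq2 1.42.0 and other settings were alternatives. Scripts were tested on simulated counts. Libraries of a group were compared pairwise, and every pair differed by more than sampling noise. Libraries held 42198416 or more counts. The labels do not tie each library to a mouse, so p-values measure the spread between these libraries.

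The 9 genes and all lists were chosen with earlier results of these data known. Named were the 9 genes, the further slit diaphragm genes called in at least 1 comparison with Kirrel2 and Crb2, and the 5 nearest profiles to Nphs1 and to the mean of the 9. Coordinates and lengths are from GENCODE on GRCm39 (Kirrel matched through the RefSeq synonym Kirrel1), and Python 3.11.15, pandas 2.3.3 and matplotlib 3.10.9 made tables and figures.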

Additional observations from a re-analysis of the deposited data

How the results depend on the processing

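The 54 log2 fold changes of the 9 genes were recomputed under 11 other settings and without each of 11 libraries. Under the other settings 512 kept direction and side of the threshold, 12 lost a call, 11 gained one and 59 changed sign; without a library the counts were 580, 3, 6 and 5. The cause was not tested where none is named.

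Scaling to the 14 podocyte genes put the all-gene medians at -0.22 (substrains at baseline), 0.43 (Day 5), 0.31 (AJcl), 0.98 (ByJcl), 0.64 (average) and 0.66 (interaction). Baseline Cd2ap went to -0.15. At Day 5 between substrains Fat1 went to 0.25, Tjp1 to 0.16 and Trpc6 to 0.14, and Nphs1 in AJcl to 0.055. In ByJcl Cd2ap went to 0.041, Fat1 to 0.47, Tjp1 to 0.60 and Trpc6 to 0.37; with the 5 transcription factors these were 0.20, 0.63, 0.76 and 0.51. The transcription factor scale, chosen after seeing the data, also took baseline Cd2ap to -0.11, and at Day 5 between substrains Cd2ap to 0.099, Plce1 to 0.068, Ptpro to 0.058, Fat1 to 0.35, Tjp1 to 0.26 and Trpc6 to 0.22. In AJcl it took Nphs1 to 0.14, Ptpro to 0.058 and Trpc6 to 0.089, in the average Cd2ap to 0.092, Ptpro to 0.014, Fat1 to 0.60, Tjp1 to 0.68 and Trpc6 to 0.30, and in the interaction Kirrel to 0.37, Cd2ap to 0.21, Fat1 to 0.050, Tjp1 to 0.16 and Trpc6 to 0.42. On the 14-gene scale the average of Fat1 went to 0.48, Tjp1 to 0.56 and Trpc6 to 0.17, and in the interaction Kirrel to 0.31, Cd2ap to 0.15, Tjp1 to 0.088 and Trpc6 to 0.39. On the 14-gene and the transcription factor scale, 3 and 3 of the 9 were called in ByJcl, 35 and 36 of the 42 further genes in ByJcl (3 and 1 as lower), 35 and 33 on average and 2 and 2 in AJcl.

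With AJcl Day 5 replicate 1 added, Fat1 went to 0.16 (Day 5, substrains) and -0.22 (AJcl) and Tjp1 to -0.10 (AJcl); 0 further genes were called in AJcl and 7 in ByJcl. In place of replicate 2 it took the Day 5 substrain values of Fat1 to 0.41, Tjp1 to 0.24 and Plce1 to 0.14, the AJcl values of Kirrel to -0.025, Fat1 to -0.50 and Tjp1 to -0.39, the average of Kirrel to -0.00072 and its interaction to 0.048; 3 of the 9 (Magi2, Cd2ap and Plce1) and 3 further genes were then called in AJcl. In place of replicate 3 the values were 0.33 and 0.048 for Fat1 and Tjp1 (Day 5, substrains), -0.028, -0.39 and -0.17 for Kirrel, Fat1 and Tjp1 (AJcl) and 0.088 for Kirrel (interaction), with 4 further genes called between substrains at Day 5 and 0 in AJcl.

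The tubule covariate took baseline Cd2ap to -0.012 and Day 5 Kirrel to -0.068 and gave 2 further genes in AJcl, as did dropping the filter. DESeq2 called 1 of the 9 between substrains at Day 5 and 1 in AJcl, 3 and 2 further genes there and 15 further genes in ByJcl against 11 (7 and 3 of them as higher).

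Over all genes, calls that moved by more than 1.5 times were, between substrains at baseline (27), 101 by DESeq2 and 15 with AJcl Day 5 replicate 1 in place of replicate 3. Between substrains at Day 5 (28) they were 535 by DESeq2, 56 with no filter, 66 with the tubule covariate, and 72, 15 and 793 with replicate 1 added, in place of replicate 2 and in place of replicate 3. In AJcl (53) they were 301 by DESeq2, 99 with no filter, 136 with the tubule covariate, 148 and 22 with replicate 1 in place of replicates 2 and 3, and 145 and 200 on the 2 podocyte scales. In ByJcl (1800) they were 1197 with replicate 1 added, and 12410 and 13196 on the podocyte scales, with 12310 of 12410 as higher against 978 of 1800. On average (1774) they were 1040 with replicate 1 in place of replicate 3, and 11687 and 12800 on the podocyte scales, with 11569 of 11687 as higher against 1069 of 1774. In the interaction (0) they were 22 by DESeq2 and 2 with replicate 1 in place of replicate 3.

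Leaving out 1 library (a lone AJcl library at Day 5 is then assumed to vary like the other groups), the calls among the 9 ranged from 0 to 1 (substrains at Day 5, and AJcl), 5 to 6 (ByJcl) and 3 to 6 (average), and among the 42 from 0 to 2 (substrains at Day 5), 0 to 1 (AJcl), 7 to 12 (ByJcl, 7 without each ByJcl baseline library in turn) and 8 to 13 (average). Values that changed sign ranged from -0.031 to 0.17 (Cd2ap, baseline), -0.18 to 0.10 (Trpc6, baseline), -0.0093 to 0.065 (Kirrel, Day 5) and -0.13 to 0.35 (Fat1, AJcl). Calls over all genes ranged from 680 to 2056 in ByJcl, 531 to 1816 on average, 11 to 180 in AJcl, 9 to 218 between substrains at Day 5, 12 to 29 at baseline and 0 to 5 in the interaction.

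With the replicate block, 5 of the 9 were called in ByJcl and on average as without it, 0 of the 42 in AJcl, and 26 genes in all in AJcl against 53. Replicate numbers belong to different mice, and deviations of same-numbered libraries correlated between -0.22 and 0.34. Of 6 baseline libraries 2 correlated best with their own number, and of the 6 ByJcl libraries 3. With 3 candidates for each library, these counts show no pairing by replicate number.

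Per kb of the longest transcript, baseline ByJcl levels were 337 CPM for Nphs1, 218 for Ptpro, 117 for Tjp1, 104 for Cd2ap, 61.0 for Plce1, 55.02 for Fat1, 49.6 for Kirrel, 43.7 for Magi2 and 2.87 for Trpc6.

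Each of the 9 genes had 308 or more counts in each library.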

Other observations

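The 9 genes varied more between the AJcl than between the ByJcl libraries at baseline. The coefficient of variation over 3 libraries was larger in AJcl for 8 of the 9, for example 21.3% against 4.76% for Nphs1, 20.0% against 4.25% for Plce1 and 34.5% against 14.2% for Fat1, and Trpc6 was the exception at 15.6% against 16.9%. In AJcl, replicate 2 held the highest level of all 9 genes at baseline and had the lowest proximal tubule sum of its group, 1457 CPM against 2883 and 5382 CPM. The 14 podocyte reference genes varied likewise: their sum ran from 16486 to 22132 CPM in AJcl and from 20820 to 22985 CPM in ByJcl. AJcl replicate 2 was again the highest of its group, so this spread was not particular to the 9 genes. The part of tubule in this spread was not tested.

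Profiles of the 9 genes over the 11 libraries differed in how close they lay to one another. Magi2 was farthest from the mean of the other 8, at a root-mean-square distance of 0.736 on the log2 scale, followed by Kirrel at 0.539 and Fat1 at 0.398. Ptpro was nearest, at 0.128. The next closest pairs after Nphs1 and Ptpro were Ptpro and Plce1 (0.16) and Fat1 and Tjp1 (0.179).

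Taken as a ratio, AJcl replicates 2 and 3 at Day 5 differed most among the 9 genes for Magi2, at 170.2 and 73.2 CPM, and least for Kirrel, at 371 and 369 CPM. The antisense transcript Nphs1os, which shares exon bases with Nphs1, had at most 0.329% of the Nphs1 counts in any library.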
